A study of Mus musculus with 6 samples.

Results

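Slit1, Slit2 and Slit3 encode secreted ligands, and Robo1, Robo2 and Robo4 encode receptors of the Robo family. Every probe set of the array whose platform annotation named just one of these 6 genes was taken, which gave 11 of the 45037 probe sets other than controls, and of the genes named on the array these are 6 of 18193. The Slit genes had 6 of them and the Robo genes 5. All 6 symbols matched the RefSeq gene table by gene ID, and 0 further probe sets named a member together with another gene. The tissue was the outflow tract of the heart of CD1 mouse embryos at embryonic day 10.5, cut into a superior and an inferior part, with no mutant allele or treatment named in the labels. Pools numbered 1, 6 and 7 were hybridised for each part, so there were 6 arrays, 3 per region. The labels do not state that superior and inferior pools of one number came from the same embryos, and the differences within pools, with their errors and p-values, rest on that pairing. Sample labels give 6 embryos a pool and the series text gives 7 dissected pieces. Nothing states that pools came from separate litters. The paired p-values rest partly on how the differences within pools vary from pool to pool, and this spread may be partly technical. Those of the fit without pool number rest partly on the spread between pools within a region. Both fits also use variance shared across probe sets, so no p-value measures the spread of a gene's own pools alone.

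Slit proteins are large secreted molecules of the extracellular matrix that bind the outer part of Robo receptors, with heparan sulphate proteoglycans strengthening the bond. The receptors then act on the cytoskeleton through small GTPases and actin-binding proteins, and the pathway is best known for steering axons at the midline of the nervous system. In the heart, Slit2, Slit3, Robo1 and Robo2 are known to take part in forming the pericardium, septa, valves and large veins, while Robo4 is a receptor of endothelial cells.

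Slit2 and Slit3 are also host genes of the microRNA miR-218, which is known to repress Robo1 and Robo2. In the RefSeq tables of build GRCm38.p6, Mir218-1 lies within Slit2 at chr5:48223942-48224051 and Mir218-2 within Slit3 at chr11:35616816-35616925, both on the plus strand like their hosts. The mature sequences from both host genes follow, with the seed, bases 2 to 8, in capitals.
mmu-miR-218-5p: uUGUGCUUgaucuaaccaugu
mmu-miR-218-1-3p: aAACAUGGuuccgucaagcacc
mmu-miR-218-2-3p: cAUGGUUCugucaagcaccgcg
The 5p sequence of 21 bases is the same from both genes, whereas the 3p sequences have different seeds. The microRNA's own level was not analysed here, and no target site in a Robo transcript was looked for.

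None of the Slit and Robo probe sets passed the test for a regional difference. Slit3 came nearest: its mean signal was lower in superior than in inferior pools by 1.43-fold (log2 -0.52 ± 0.11, SE; limma adjusted p = 0.162, n = 3 pools), and its values in the 2 regions did not overlap. Robo1 was next, lower in superior by 1.25-fold (log2 -0.33 ± 0.12, adjusted p = 0.398) and lower in each of the 3 pools. Slit2, Robo2 and Robo4 had intervals of the difference that included 0, and Slit1 was too dim to be tested. In such pieces of tissue, fewer cells of a type and less RNA per cell cannot be told apart. A signal here is the deposited MAS5 value of a probe set on an array, log2 differences are superior minus inferior on log2(signal + 3.2), and a call is an adjusted p below 0.05 over the 22518 probe sets tested.

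Of the 11 probe sets 6 were bright enough to be tested, and they belong to 5 genes. In the fit that compares regions within pools 0 of these 6 were called, against 36 of 22518 over the array (0.160%). Without the pool term limma again called 0 of the 6, and 0 over the array (0%), where the smallest adjusted p was 0.755. At an unadjusted p below 0.05, 2 of the 6 passed in the paired fit, Slit3 and Robo1, against 11.0% of all tested probe sets, and 1 passed in the unpaired fit, Slit3, against 3.52%. The mean difference was below 0 for 6 of the 6, against 55.1% of all tested probe sets. This count was 4 under quantile normalization (49.8% over the array), under cyclic loess (49.6%) and without pool 7 (53.9%), and 5 without pool 6 (52.8%). The median log2 difference of the 6 was -0.30, and that of all tested probe sets -0.02. In pools 1, 6 and 7 the median of the 6 was -0.20, -0.10 and -0.36.

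**Figure D1:**
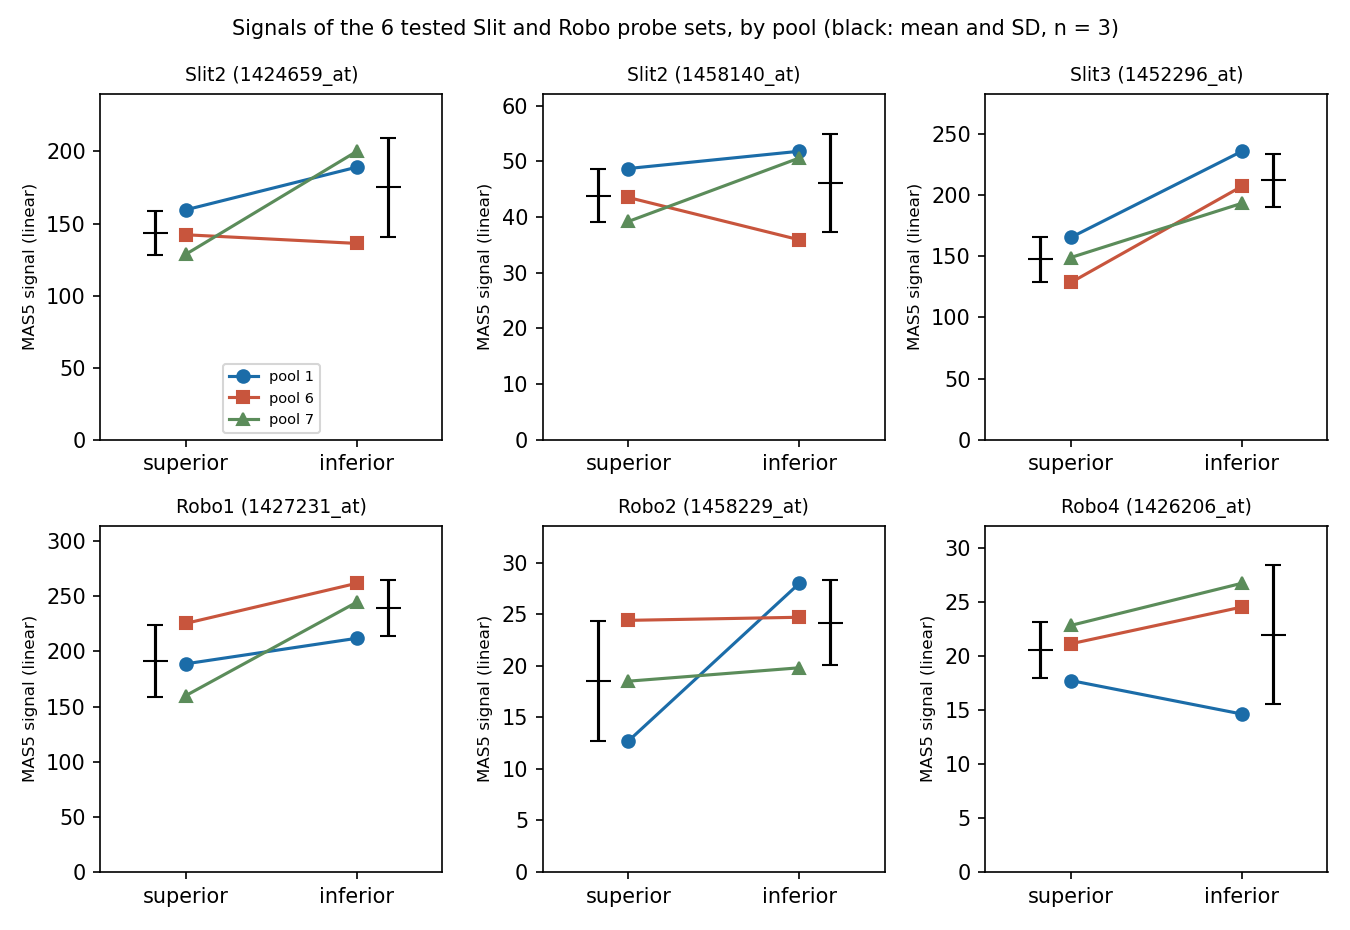
MAS5 signal (linear, each axis from 0) of the 6 tested probe sets in superior and inferior arrays, with a line for each pool and the mean and SD of 3 pools in black. The lines of Slit3 and Robo1 run upward from superior to inferior in all 3 pools, and the Slit3 values of the regions do not overlap.

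Slit3 is a ligand whose loss is known to cause diaphragm and kidney defects in mice. Its 1 probe set, 1452296_at, had superior signals of 165.4, 128.6 and 149.0 in pools 1, 6 and 7, and inferior signals of 235.8, 207.2 and 193.3. Every superior value lay below every inferior value, and the lowest of all was superior 6. Superior pools averaged 147.7 ± 18.4 (SD, n = 3) and inferior pools 212.1 ± 21.7 (n = 3). All 6 signals were far above 8.0, the highest signal of the Bacillus control probe sets, which is used here as the background level. Pool 1 differed by -0.50, pool 6 by -0.67 and pool 7 by -0.37 in log2 units. The mean's 95% interval ran from -0.76 to -0.27. Ranked by p, Slit3 was number 160 of 22518 in the paired and number 115 in the unpaired limma fit, with unadjusted values of 0.00115 and 0.00822. All superior values lay below all inferior ones for 1 of the 6 tested member probe sets, Slit3, and for 4.56% of all tested probe sets. Leaving out pool 1, 6 or 7 gave log2 differences of -0.52, -0.44 and -0.59, with adjusted p = 0.908, 0.108 and 0.0953.

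Slit2, the ligand most studied in axon guidance and in blood vessel growth, had 3 probe sets. The brightest, 1424659_at, had superior signals of 159.5, 142.2 and 128.7 in pools 1, 6 and 7 and inferior signals of 189.1, 136.2 and 200.1. The regions overlapped, because inferior 6 was lower than superior 6 and superior 1. The means were 143.5 ± 15.4 in superior and 175.1 ± 34.2 in inferior pools, a log2 difference of -0.27 ± 0.14 with a 95% interval from -0.59 to 0.05 (adjusted p = 0.518). The difference was -0.24, 0.06 and -0.62 in pools 1, 6 and 7. It was -0.43 without pool 6 and -0.09 without pool 7, so pool 7 carried most of it.

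The second Slit2 probe set, 1458140_at, had superior signals of 48.7, 43.5 and 39.2 and inferior signals of 51.8, 35.9 and 50.6 in the same pool order. As on the brightest one, inferior 1 and inferior 7 were the highest arrays and pool 6 alone was higher in superior. The differences were -0.08, 0.26 and -0.34 in pools 1, 6 and 7, and their mean of -0.06 ± 0.17 (95% interval -0.43 to 0.32, adjusted p = 0.933) changed sign under quantile normalization, under cyclic loess and without pool 7. The third, 1451430_at, had signals of 9.3 to 18.6 over the 6 arrays, lay below the filter on dim probe sets and was not tested. Its differences of 0.14, 0.41 and -0.38 again had pool 7 as the lowest and pool 6 as the highest.

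Slit1, a ligand mainly of the nervous system, was dim on both of its probe sets, which lay below the filter and got no test. Probe set 1425277_at had superior signals of 13.9, 22.7 and 2.2 and inferior signals of 14.1, 8.2 and 22.4 in pools 1, 6 and 7. Each region thus held both high and low arrays, and superior 7 alone was under the background level of 8.0. Its log2 differences were -0.02, 1.18 and -2.25, which point in opposite directions in pools 6 and 7. Probe set 1440056_at had signals of 0.5 to 3.5, at or below background in all 6 arrays. No regional statement on Slit1 can be made at this signal over background.

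**Figure D2:**
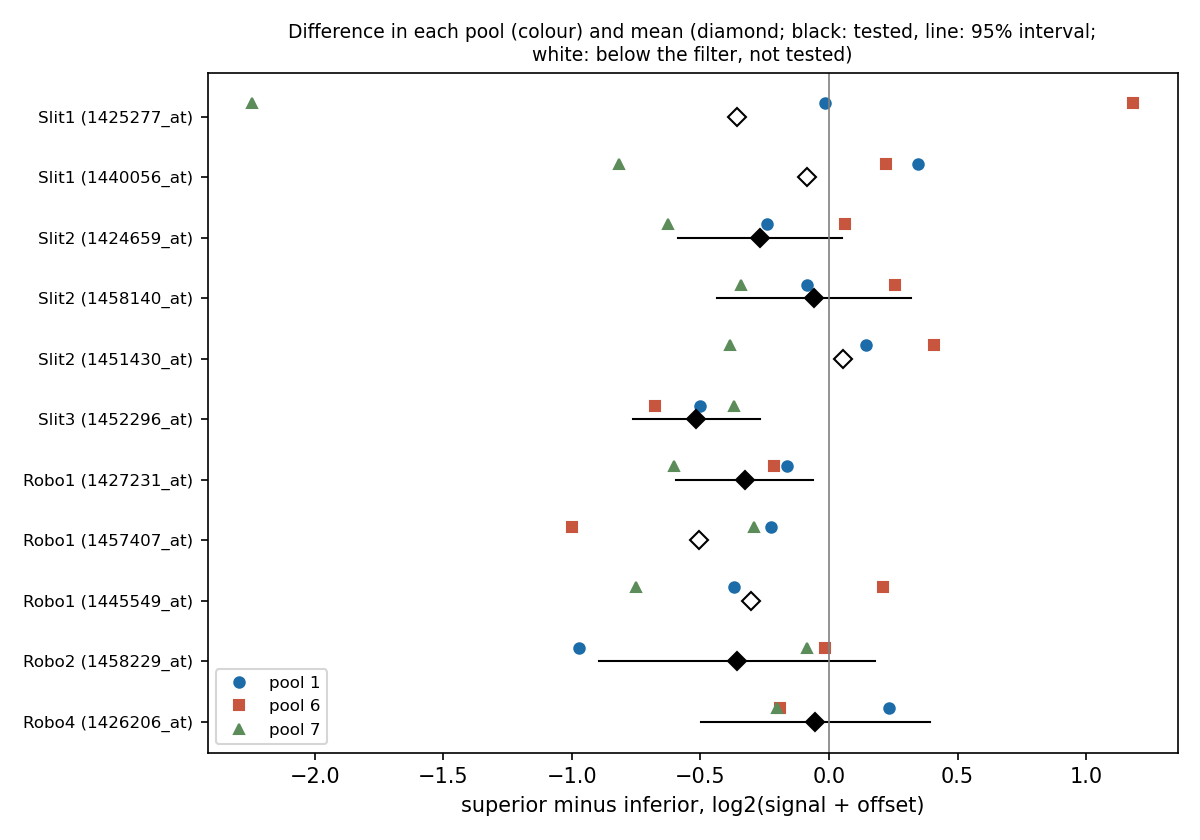
Superior minus inferior log2 difference of each of the 11 probe sets, in each pool (coloured markers) and on average (diamonds), with 95% intervals of the paired limma fit for the 6 tested ones and white diamonds for the 5 not tested. The interval of Slit3 (-0.76 to -0.27) and that of the brightest Robo1 probe set (-0.59 to -0.06) lie below 0, and the Slit1 differences spread from -2.25 to 1.18.

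Among the receptors, Robo1 is a broadly expressed member that binds Slit2 and Slit3. Its brightest probe set, 1427231_at, had superior signals of 188.8, 225.5 and 160.0 in pools 1, 6 and 7 and inferior signals of 212.0, 261.9 and 244.8. In each pool the superior array was the lower one, but superior 6 exceeded inferior 1, so the regions overlapped. The means were 191.4 ± 32.8 and 239.6 ± 25.4, a log2 difference of -0.33 ± 0.12 (95% interval -0.59 to -0.06, unadjusted p = 0.0218). The difference was -0.16, -0.21 and -0.60 in the 3 pools, and -0.19 without pool 7. Being lower in all 3 pools was shared by 3 of the 6 tested members, Slit3, Robo1 and Robo2, and by 19.0% of all tested probe sets.

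The other Robo1 probe sets were dim and untested. Probe set 1457407_at had superior signals of 6.3, 6.9 and 7.1, all under the background level, and inferior signals of 7.9, 17.0 and 9.4, of which inferior 6 and inferior 7 were above it. Probe set 1445549_at had superior signals of 8.5, 7.8 and 4.7 and inferior signals of 11.9, 6.3 and 10.1, with pool 6 the 1 pool higher in superior. Signals around the background carry little information on a direction.

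Robo2, the receptor that often acts beside Robo1, had 1 probe set, 1458229_at. Its superior signals were 12.7, 24.4 and 18.5 and its inferior signals 28.0, 24.7 and 19.8 in pools 1, 6 and 7. Inferior 1 was the highest array and superior 1 the lowest, and pools 6 and 7 hardly differed. The means were 18.5 ± 5.85 and 24.2 ± 4.13 (log2 -0.36 ± 0.24, 95% interval -0.90 to 0.18, adjusted p = 0.619). Pool 1 gave -0.97, pool 6 -0.02 and pool 7 -0.08, and without pool 1 the difference was -0.05.

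Robo4, the endothelial receptor, had 1 probe set, 1426206_at, with superior signals of 17.7, 21.1 and 22.8 and inferior signals of 14.6, 24.5 and 26.7. Both pool 1 arrays were the lowest, and the order of pools was the same in both regions. The means were 20.5 ± 2.60 and 21.9 ± 6.45 (log2 -0.05 ± 0.19, 95% interval -0.50 to 0.39, adjusted p = 0.947). This sign turned under quantile normalization, under cyclic loess and without pool 6 or 7. Of 12 endothelial and endocardial marker genes, all tested, 4 were lower and 8 higher in superior, 0 called, and their summed signal was 2082 to 2711 in superior and 2141 to 2541 in inferior arrays. None of those markers was listed at 0, and their part in the Robo4 values was not tested.

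The arrays were alike in general measures. The median signal ran from 13.9 to 17.6 and 58.4% to 63.1% of probe sets lay above background. Superior 6, the array with the lowest Slit3 signal, had hybridisation controls at 1.59 times the median array, against 0.905 to 1.03 for the others. The log2 difference of Slit3 was -0.44 without pool 6, and the part of these controls in it was not tested. Heart muscle was present, as Tnnt2, the cardiac troponin T, averaged 4698 in superior and 4093 in inferior arrays.

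Cell type marker lists are given as counts and summed signals, with no test of a list. Over the array 0.160% of tested probe sets were called, and 55.1% had a mean difference below 0. Of 10 epicardial and mesothelial markers 8 were tested, 8 of these were higher in superior and 4 were called; their summed signal was 1135 to 1956 in superior and 707.1 to 965.3 in inferior arrays. Neural crest markers had lower sums in superior in each pool, 1014 to 1237 in superior and 1127 to 1612 in inferior arrays. Of 9 markers 7 were tested, 6 lower and 1, Sox10, higher in superior (log2 0.31), 0 called. Most of these sums came from Twist1 (means 499.9 in superior and 601.3 in inferior) and Ets1 (507.1 and 588.0), and Twist1 is also on the cushion mesenchyme list. Within pools 1, 6 and 7 the log2 ratio of the neural crest sums was -0.45, -0.22 and -0.15. Tfap2b and Foxd3 of this list, Msln of the epicardial list, Dcx of the neuronal list and Pax1 and Pax9 of the endoderm list were never above background, and 0 markers of any list were at 0. Myocardial sums were 38844 to 46920 in superior and 35713 to 36126 in inferior arrays (10 tested, 8 higher and 2 lower), and ventricular chamber sums 11137 to 13648 and 9032 to 10302 (6 tested, 6 higher, 1 called). The part of any of these lists in the Slit and Robo values was not tested.

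Sums of the remaining lists overlapped between regions. Their log2 ratio had one sign in all pools for smooth muscle (0.10, 0.27 and 0.15 in pools 1, 6 and 7) and macrophage genes (-0.57, -0.01 and -0.10), and both signs for the others. Cushion mesenchyme had sums of 8629 to 12395 and 8573 to 11598 (8 tested, 6 lower), smooth muscle 9317 to 11313 and 8722 to 9369 (4 tested, 3 higher), and the neuronal list 430.3 to 533.8 and 452.9 to 587.6 (6 tested, 4 lower). Endoderm and epithelium had sums of 1124 to 1312 and 935.7 to 1425 (4 tested, 3 higher), erythroid genes 13891 to 22652 and 12508 to 15697 (5 tested, 4 higher), and macrophage genes 93.3 to 246.0 and 100 to 271.1 (5 tested, 3 higher). These 6 lists had 0 members called.

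**Figure D3:**
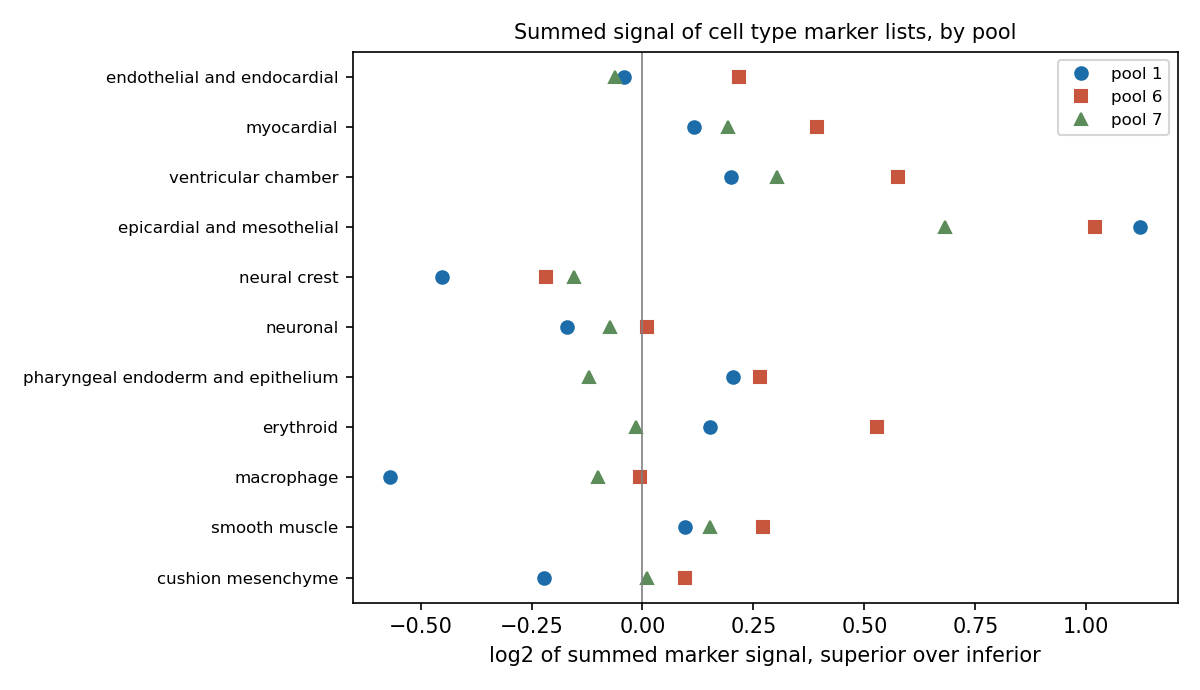
Log2 ratio of the summed marker signal, superior over inferior, for 11 cell type lists in each pool. The epicardial ratios (1.12, 1.02 and 0.68 in pools 1, 6 and 7) are above 0 and the neural crest ratios below 0 in every pool.

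Beyond the 6 members, 36 genes of the pathway were listed, and 31 of the 35 that the array measured by a probe set naming them alone were tested. Of these 31, 0 were called in either direction (0.160% over the array) and the smallest adjusted p was 0.376. Without the pool term 0 were called as well (0% over the array). The mean difference was below 0 for 21 of the 31 and above 0 for 10, where 55.1% of all tested probe sets were below 0. The median was -0.05, beside -0.02 over all tested probe sets. At an unadjusted p below 0.05, 5 of the 31 passed in the paired fit, 3 lower and 2 higher in superior, beside 11.0% over the array. In the unpaired fit 1 passed, Enah, beside 3.52%. All superior values lay below all inferior ones for 2 of the 31, Enah and the deubiquitinase gene Usp33 (log2 -0.21 ± 0.10, adjusted p = 0.492), beside 4.56% over the array.

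The surface proteins that hold Slits were the group with the widest spread. All 7 were tested and 5 had a mean below 0. Sdc2, the proteoglycan syndecan-2, had superior signals of 292.4, 282.3 and 275.9 and inferior signals of 236.6, 259.7 and 154.1 in pools 1, 6 and 7. The regions did not overlap, and inferior 7 was the lowest array (log2 0.42 ± 0.14, adjusted p = 0.376). Superior values all above inferior ones were found for 1 of the 31 tested pathway genes, Sdc2. The share of all tested probe sets separated in this direction was not counted. Sdc3, syndecan-3, had superior signals of 174.4, 245.9 and 208.4 and inferior signals from 194.8 in pool 1 to 309.1 in pool 6, lower in superior in each pool although the regions overlapped (log2 -0.25 ± 0.10, adjusted p = 0.426). Gpc1, the glypican that binds Slits through heparan sulphate, had superior signals of 234.1, 321.9 and 224.1 and inferior signals of 310.5, 462.8 and 216.1, with pool 7 reversed (log2 -0.29 ± 0.12, adjusted p = 0.446). Sdc1 and Sdc4, the other syndecans, had differences of -0.02 ± 0.10 and 0.13 ± 0.12.

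Among the cytoplasmic partners 10 genes were tested, 7 lower and 3 higher. Enah, an actin regulator that docks on the tail of Robo receptors, had superior signals of 2121, 2119 and 2293 and inferior signals of 2534, 2705 and 2362. All superior values lay below all inferior ones (log2 -0.22 ± 0.10, adjusted p = 0.454). Cap2, an actin-binding protein of heart muscle, had superior signals of 586.5, 445.4 and 621.3 and inferior signals of 468.5, 433.2 and 396.1, higher in superior in each pool with overlap between the regions (log2 0.34 ± 0.12, adjusted p = 0.398). The GTPase Rac1, which Robo signalling regulates, had a difference of 0.12 ± 0.10 (adjusted p = 0.688), and its mean signals were 2344 ± 483.7 and 2136 ± 277.4.

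The Slit-Robo GTPase activating proteins stayed within their errors. Srgap1 differed by -0.07 ± 0.14, Srgap2 by -0.08 ± 0.10 and Srgap3 by 0.11 ± 0.23 in log2 units (adjusted p = 0.884, 0.820 and 0.900). Their 95% intervals were -0.39 to 0.24, -0.32 to 0.16 and -0.42 to 0.65. Of the 5 GTPase regulators tested 3 were lower, and of the 3 GTPases 1 was lower. The 3 tested genes of Robo-binding proteins other than Slits, Ndnf, Flrt3 and Unc5b, had a median difference of -0.16, and Nell2 was never above background. Robo3, the receptor known from crossing axons, had a brightest probe set at 10.4 to 16.7 over the 6 arrays, below the filter, with superior and inferior means of 12.9 ± 1.42 and 13.6 ± 3.15.

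**Figure D4:**
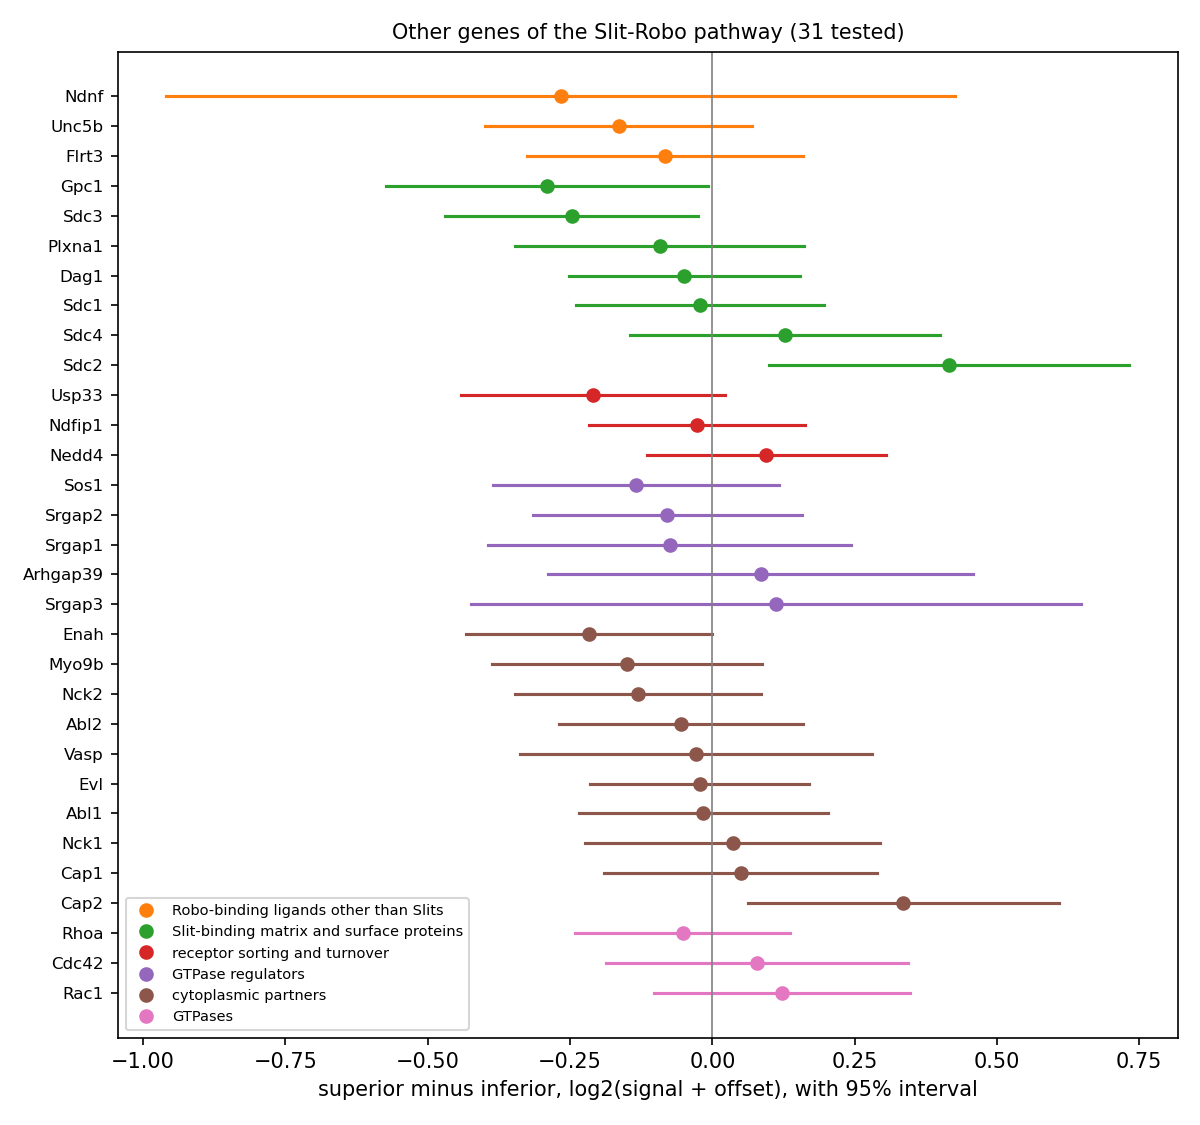
Superior minus inferior log2 difference with its 95% interval for the 31 tested pathway genes, coloured by role. Sdc2 (0.42) and Cap2 (0.34) lie highest and Gpc1 (-0.29) lowest, and Ndnf has the widest interval.

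The probe sets with the most similar profile over the 6 arrays were found for each member with a tested leading probe set, by Pearson r of log2 values among 19600 candidate probe sets of other genes. With 6 arrays from 3 pools and so many candidates a high r is common, so these are descriptions. For Slit3 they were AU040320 (r = 0.995) and Scarf2 (0.990), with 51 candidates above 0.95. For Robo1 they were Unc119b (0.990) and Bdnf, a neurotrophin (0.988), with 26 above 0.95. Slit2 had C2cd5 (0.994) and Chst2 (0.992), and Robo2 had Trip11 (0.989) and Phykpl (0.987). Robo4 had Zfpm1, a partner of GATA factors (0.998), and Arhgef17 (0.997), with 365 candidates above 0.95.

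RefSeq start sites of build GRCm38.p6 were held for 5 of the 6 genes, as 7 windows from 250 bases before to 50 after the start; Slit1 had no entry. The 250 bases before the starts of Slit3 and Robo1 are shown, since these 2 genes had the smallest p, and both lie on the plus strand. Slit3 has chr11:35121206-35121455 and Robo1 chr16:72662899-72663148. Capitals mark every match, on either strand, to the GC box GGGCGG, the E-box CANNTG, the T-box half-site AGGTGT, the GATA site AGATAA and the NKX2 core CAAGTG.
Slit3: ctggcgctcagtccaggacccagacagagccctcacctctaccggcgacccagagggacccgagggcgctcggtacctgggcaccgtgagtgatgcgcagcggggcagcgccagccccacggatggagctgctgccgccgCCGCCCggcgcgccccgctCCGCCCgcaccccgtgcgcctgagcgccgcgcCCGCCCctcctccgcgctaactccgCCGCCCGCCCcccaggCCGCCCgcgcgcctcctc
Robo1: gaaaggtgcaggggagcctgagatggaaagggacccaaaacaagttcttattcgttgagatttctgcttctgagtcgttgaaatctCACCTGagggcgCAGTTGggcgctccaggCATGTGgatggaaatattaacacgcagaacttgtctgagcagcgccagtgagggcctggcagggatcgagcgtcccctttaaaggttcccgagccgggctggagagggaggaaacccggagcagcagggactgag

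The capitals of Slit3 are 6 GC boxes, of which 2 overlap, and those of Robo1 are 3 E-boxes. GC boxes were also found in the Slit2 window (3), and in none of the Robo windows. E-boxes were found in all Robo windows, and in neither Slit window. Over the 32851 windows of all genes, 35.7% held a GC box, 72.3% an E-box, 13.7% the T-box half-site, 11.2% the GATA site and 13.6% the NKX2 core. One GATA site lay in a Robo2 window, and the T-box half-site and NKX2 core were in none of the 7. Base composition separated the ligand windows from that of Robo4: the GC content was 78.3% for Slit3, 68.0% for Slit2, 57.0% for Robo1 and 50.3% for Robo4, against a median of 52.7% over all windows. The ratio of observed to expected CpG was 0.928, 0.900, 0.653 and 0.106 in that order, with a median of 0.384. The 3 Robo2 windows had 45.0% to 65.0% GC. A match to these letters is a description of the sequence and does not show a bound factor.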

How the data were processed

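The authors deposited 1 intensity value per probe set and array on a linear scale; the submitters' processing notes name MAS5, with no version. The arrays are Affymetrix Mouse Genome 430 2.0. Each array had a mean of 100 after trimming at both ends, so a signal is relative to its array. Arrays have no depth; their number limits precision. Of 45101 probe sets 64 controls were left out. Signals were turned into log2(signal + 3.2), 3.2 being their 25th percentile, which understates differences of dim genes, and 22518 probe sets with a mean above the median (signal about 15.1) were tested. Background is the highest signal, 8.0, of 27 Bacillus control probe sets.

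limma 3.58.1 in R 4.3.3 (lmFit, eBayes with trend and robust variance) was fitted with region and pool number, with Benjamini-Hochberg adjustment; ± after a log2 difference is its SE. The paired fit has 2 residual degrees of freedom and leans on variance shared across probe sets. Both regions carry the same pool numbers in the labels, and same-numbered arrays deviated together (r = 0.79, 0.43 and 0.51 in pools 1, 6 and 7), all above the limit of 0.1, though 2 pairs with unlike numbers (6 with 7) also passed it at 0.18 and 0.20.

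All probe sets of members are named. A gene in a list is represented by its probe set with the highest mean. Pathway genes are named if called, and otherwise the 3 of smallest p in each direction, with Robo3 and Srgap1 to Srgap3. Sdc1, Sdc4, Usp33, Ndnf, Flrt3, Unc5b and Nell2 fall outside this rule and were named after their values were seen, to fill out their groups. The scripts were tested on simulated data. Members and lists were chosen with earlier results of these data known.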

Additional observations from a re-analysis of the deposited data

How the results depend on the processing

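Under all 12 alternatives 0 Slit and Robo probe sets and 0 of the other pathway genes were called. Slit3 stayed below 0 in all 12 (log2 -0.59 to -0.44, adjusted p 0.0953 to 1.00), as did the brightest probe sets of Robo1 (-0.41 to -0.19), Slit2 (-0.43 to -0.09) and Robo2 (-0.53 to -0.05). Leaving out the pool term, changing the filter on dim probe sets or using plain eBayes cannot move a log2 difference. Slit3, Robo2 and the brightest probe set of Robo1 were lower in superior in every pool. For them, leaving out 1 pool or changing the log2 offset could not change the sign either. Only the changes of normalization and scaling could reverse these probe sets. The tested Slit2 probe sets and Robo4 had pools of both signs, so leaving out a pool or changing the offset could matter there too. Robo4 reversed to 0.022 under quantile normalization and 0.022 under cyclic loess, to 0.015 without pool 6 and to 0.021 without pool 7, the range without 1 pool being -0.20 to 0.02. The second Slit2 probe set reversed to 0.0029 under quantile normalization, 0.0039 under cyclic loess and 0.086 without pool 7, and leaving out 1 pool gave -0.21 to 0.09. The cause was not tested.

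The paired fit called 36 probe sets over the array, 21 higher and 15 lower (26 and 12 under 75th percentile scaling). Without the replicate block it was 0, and the block changed no call of a member. With a log2 offset of 1 it was 22. Testing every probe set gave 1, testing the brightest 25% gave 2, and plain eBayes gave 0. Leaving out 1 pool gave 9 to 231. The dim signals of Slit1 and of 3 further probe sets limit any statement on them.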
